A study of Mus musculus with 2 samples.

Results

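Rbpj and the Hes and Hey genes through which Notch signalling is commonly read out were measured in the ureters of mouse embryos in which Rbpj had been conditionally inactivated. The set holds 9 genes, namely Rbpj, Hes1, Hes5, Hes6, Hes7, Hey1, Hey2, Heyl and Nrarp. Every non-control spot annotated with one of these names on both arrays was taken, which gave 10 probes, 2 for Rbpj and 1 for each of the other genes. These were 10 of 39429 probes on the array, and of the 26224 probes whose signal was well above background for Rbpj-cKO RNA on both arrays, or for control RNA on both, and were therefore tested. No member was lost to that filter, since each of the 10 probes was well above background in all 4 channels, and each had 1 spot per array.

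The study compared total RNA of dissected E18.5 ureters from Rbpj-cKO embryos, of genotype Tbx18(cre/+);Rbpj(fl/fl), with that of control embryos, of genotype Rbpj(fl/?) with no cre allele listed, all in the NMRI strain. Each of the 2 arrays set Rbpj-cKO RNA against control RNA from embryos of that sex, in different dyes. On the male array the Rbpj-cKO RNA was in the red channel and the control RNA in the green channel, and on the female array the dyes were swapped, so sex, dye orientation and array cannot be told apart. The number of embryos behind each RNA and any pooling of RNA are not stated in the labels. The p-values rest on the spread between these 2 arrays, mostly as pooled over all tested probes. They do not measure the spread among embryos. In the controls the second Rbpj allele is not specified. Cre sits in the Tbx18 gene, a gene of the undifferentiated mesenchyme that ensheathes the ureteric epithelium. Cells of another origin in the same tissue, such as the urothelium, can therefore keep Rbpj. The Rbpj-cKO embryos carry 1 Tbx18 allele with cre while the controls do not. The labels do not say which part of Rbpj is floxed, so the Rbpj probes are no check of the genotype labels.

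RBPJ is the DNA-binding protein of the Notch pathway. When a ligand on a neighbouring cell binds a Notch receptor, the receptor is cleaved and its intracellular part enters the nucleus, where it joins RBPJ and Mastermind-like coactivators to switch on target genes. Without that partner RBPJ recruits corepressors, so loss of RBPJ can remove both activation and repression. The best known targets are the Hes and Hey genes, which encode basic helix-loop-helix repressors, and Nrarp, whose product binds the Notch and RBPJ complex and dampens it. In developing organs with a smooth muscle coat, Notch signalling is known for its part in the differentiation of vascular and visceral smooth muscle, and Hey genes are prominent in blood vessels.

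All 10 probes are 60 bases long, and their positions are those given in the files, on mm9. Whether a probe lies in a coding exon or an untranslated region was not analysed here. The sequences of the probes on which the results turn are shown because a ratio reports only the transcript that holds these bases. For Rbpj the dim probe is given whole, and for the others the opening 30 bases.
Rbpj, dim probe A_55_P2022524, chr5:54044777-54044836, plus strand: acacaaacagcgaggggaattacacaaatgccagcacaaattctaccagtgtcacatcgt
Rbpj, bright probe A_66_P139267, chr5:54048503-54048562, plus strand: tttgtagaaaaaggaatctgctcaattcca
Heyl, probe A_52_P337259, chr4:122926975-122927034, plus strand: aatcattttcttcaaggtctttgcccttct
Hey1, probe A_51_P258409, chr3:8663432-8663491, minus strand: gatttgggctctaaaagtattgttttacag
The Rbpj probes start 3726 bases apart on the chromosome. G and C made up 35.0% of the bases of the bright Rbpj, Heyl and Hey1 probes and 45.0% of those of the dim Rbpj probe. Among the 45 pairs of member probes the longest run of bases in common was 9, between a Rbpj probe and the Hes5 probe, and the Hey1 and Heyl probes shared a run of 8.

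The arrays had a median ratio of spot signal to local background of 6.78 (male) and 11.2 (female) in the Rbpj-cKO channels, against 13.3 (male) and 6.38 (female) in the control channels, so the red channel was the weaker one on both. Between 66.8% and 71.1% of spots were well above background and none was saturated. Of the 26224 tested probes, 0.16% passed the test at an adjusted p of 0.05 (42 probes, 14 higher and 28 lower in Rbpj-cKO), and 0.107% passed it as lower. The number of arrays limits the precision of every value below.

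Of the 10 member probes, 2 passed the test, both lower in Rbpj-cKO ureters, namely the bright Rbpj probe and Heyl. Hey1 was higher on both arrays by nearly the same factor and missed the threshold in the fit over all probes. The second Rbpj probe was lower on both arrays and did not pass, and the other 6 genes (Hes1, Hes5, Hes6, Hes7, Hey2 and Nrarp) did not pass in either direction. Rbpj and Heyl were thus 2 of the 104 tested probes (0.397%) that were at least 1.5-fold lower on both arrays, and Hey1 was 1 of the 45 (0.172%) that were at least 1.5-fold higher on both. The levels of the groups did not overlap at 5 of the 10 probes, lower in Rbpj-cKO at 3 (both Rbpj probes and Heyl) and higher at 2 (Hey1 and Hes7). With 2 values a group this is common, and it held for 13% of all tested probes with Rbpj-cKO lower and for 14.1% with Rbpj-cKO higher.

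**Figure D1:**
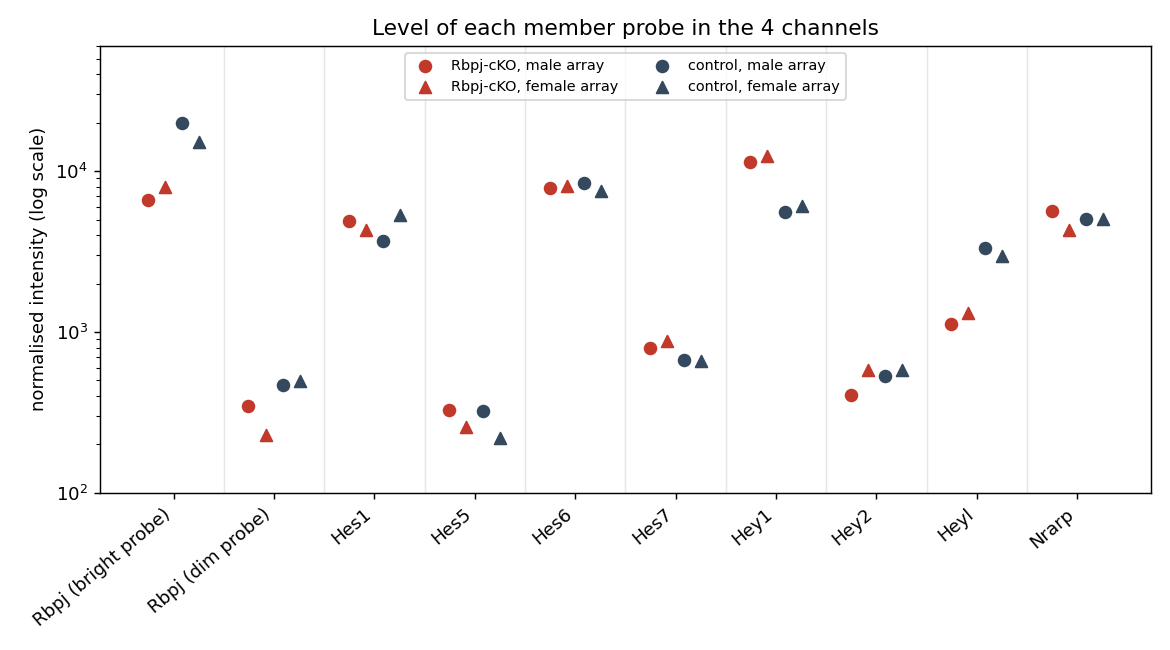
Normalised intensity (log10 axis, arbitrary units) of the 10 member probes, with Rbpj-cKO to the left of control for each probe and the male and female arrays as separate points. Heights are comparable within a probe only. Both Rbpj-cKO points lie below both control points for both Rbpj probes and Heyl, and above both control points for Hey1 and Hes7.

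Rbpj itself was read by both probes with levels far apart. The bright probe had normalised intensities of 6651 (male) and 7965 (female) in Rbpj-cKO ureters, against 19927 (male) and 15137 (female) in control ureters. Both Rbpj-cKO values lay below both control values, as at 13% of all tested probes. Rbpj-cKO retained 33.4% of the control intensity on the male array and 52.6% on the female array. The log2 ratios of −1.58 and −0.93 average −1.25 ± 0.46 (SD, n = 2 arrays), a 2.39-fold lower level, with an adjusted p of 0.0236 by limma and a 95% interval of −1.71 to −0.80. Only 22 of the tested probes had a lower mean, and 10 probes, this one included, were at least as low on both arrays. Signal was not lost in either group, since the probe stood at 87.1 and 149 times the local background in Rbpj-cKO (male, female) and at 485 and 179 times in control.

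The dim Rbpj probe had intensities of 347 (male) and 229 (female) in Rbpj-cKO, against 466 (male) and 497 (female) in control. The groups did not overlap here either, as at 13% of all tested probes with Rbpj-cKO lower, and Rbpj-cKO was at 74.6% and 46.1% of control. The mean log2 ratio was −0.77 ± 0.49 (SD, n = 2 arrays), 1.70-fold lower, with an adjusted p of 0.422. The order of the arrays was opposite at the 2 probes, since the bright probe fell further on the male array (−1.58 against −0.93) and the dim probe was lower on the female array (−0.42 against −1.12). Averaged over both probes the log2 ratio was −1.0 (male) and −1.02 (female), and that mean of −1.01 had an adjusted p of 0.244. The dim probe stood at 3.84 and 3.90 times the local background in Rbpj-cKO and at 11.3 and 5.05 times in control. In whole ureters, fewer cells that contain Rbpj transcript and less transcript per cell cannot be told apart. With 1 test per gene in place of 1 per probe the call for Rbpj was lost, with an adjusted p of 0.0760 for its brighter probe, and over all 9 alternatives of the processing it was kept in 3, with an adjusted p between 0.00110 and 1.00.

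The ratios of the Hey genes lay on either side of 0. Heyl, a Hey-family repressor best known from smooth muscle and vascular cells, had intensities of 1125 (male) and 1305 (female) in Rbpj-cKO ureters, against 3349 (male) and 2968 (female) in control ureters. Rbpj-cKO was thus at 33.6% and 44.0% of control, without overlap between the groups, as at 13% of all tested probes with Rbpj-cKO lower. The mean log2 ratio of −1.38 ± 0.27 (SD, n = 2 arrays), 2.60-fold lower, had an adjusted p of 0.00652 and a 95% interval of −1.82 to −0.94. Heyl was the lowest of the member probes, 13 tested probes had a lower mean, and 7, Heyl included, were as low on both arrays. The call was kept in 4 of the 9 alternatives (adjusted p 0.00211 to 1.00), among which the mean log2 ratio lay between −1.52 and −1.32.

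Hey1, which encodes the founding member of the same family, had 11333 (male) and 12379 (female) units in Rbpj-cKO ureters, against 5604 (male) and 6094 (female) in control ureters. Rbpj-cKO was at 202.2% of control on the male array and 203.1% on the female array. The log2 ratios of 1.02 on both arrays averaged 1.02 ± 0.0046 (SD, n = 2 arrays), 2.03-fold higher, with a 95% interval of 0.60 to 1.44. The fit pools the variance over all probes, and with it the adjusted p was 0.0625 (unadjusted 0.000112), so the probe did not pass. It passed in 2 of the 9 alternatives, with an adjusted p of 0.0411 when only probes well above background in every channel were tested and 0.0122 when the prior variance was allowed to follow intensity. Of the 26224 tested probes 26195 had a lower mean, and 11, Hey1 included, were as high on both arrays. The log2 ratio of Hey1 exceeded that of Heyl by 2.59 (male) and 2.21 (female).

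Hey2, the member of the family best known from heart and arteries, was unlike either. Its intensities were 404 (male) and 579 (female) in Rbpj-cKO, against 529 (male) and 579 (female) in control, so the groups differed on the male array only. The mean log2 ratio was −0.19 ± 0.28 (SD, n = 2 arrays). Its 95% interval of −0.63 to 0.24 did not reach the mean ratio of Heyl or of Hey1, while smaller changes in either direction lay within it. That interval rests on 2 arrays and a variance pooled over all probes, so it cannot exclude a larger change among embryos.

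Hes1, the most widely used Notch target, had 4881 (male) and 4276 (female) units in Rbpj-cKO, against 3652 (male) and 5329 (female) in control. The Rbpj-cKO values lay inside the range of the control values. The log2 ratios had opposite signs, 0.42 (male) and −0.32 (female), and averaged 0.05 ± 0.52 (SD, n = 2 arrays; 95% interval −0.42 to 0.52; adjusted p 1.00). Written as red over green, without turning the female array, they were 0.42 and 0.32, that is, the red channel was the brighter one for Hes1 on both arrays.

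Nrarp, the feedback inhibitor, also changed sign between the arrays. It had 5683 (male) and 4313 (female) units in Rbpj-cKO, against 5071 (male) and 5070 (female) in control. The control values were almost equal, and the Rbpj-cKO values lay on either side of them. The log2 ratios of 0.16 and −0.23 averaged −0.03 ± 0.28 (SD, n = 2 arrays; 95% interval −0.47 to 0.40), and the sign of that mean turned under 3 alternatives, with log2 values of 0.03 to 0.04.

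Hes7, known as an oscillating repressor of the somite segmentation clock, was the only Hes probe whose groups did not overlap. That held for 14.1% of all tested probes with Rbpj-cKO higher. It had 797 (male) and 873 (female) units in Rbpj-cKO, against 672 (male) and 655 (female) in control. The mean log2 ratio was 0.33 ± 0.12 (SD, n = 2 arrays; 95% interval −0.10 to 0.76; adjusted p 1.00), higher than at 96.6% of tested probes, and 251 tested probes were as high on both arrays. Hes5, known as a Notch target in neural progenitors, had 326 (male) and 257 (female) units in Rbpj-cKO, against 322 (male) and 219 (female) in control. These groups overlapped, with log2 ratios of 0.02 and 0.23 (mean 0.12 ± 0.15, SD, n = 2 arrays), and at 2.59 to 7.12 times the local background Hes5 was among the dimmer member probes. Hes6, a divergent relative that can antagonise HES1 and is not a typical Notch target, had 7822 (male) and 8117 (female) units in Rbpj-cKO, against 8433 (male) and 7510 (female) in control. Its log2 ratios of −0.11 and 0.11 averaged 0.0019 ± 0.16 (SD, n = 2 arrays), with a 95% interval of −0.43 to 0.43.

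**Figure D2:**
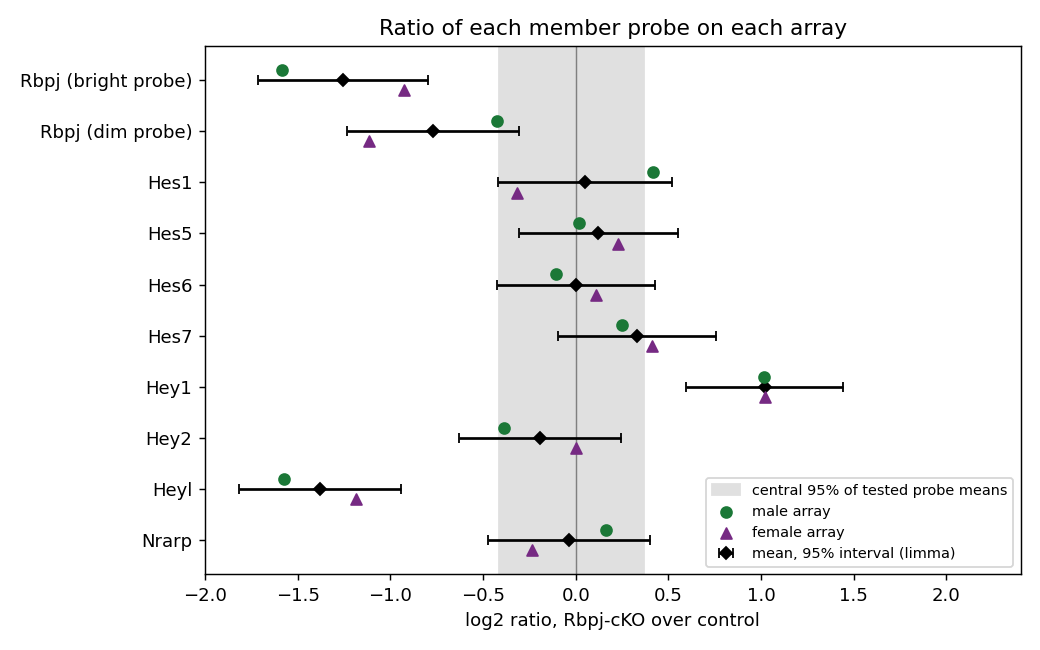
Log2 ratio of Rbpj-cKO over control of each member probe, with 1 point per array (male, female), the mean and its 95% interval from the moderated variance; the band holds the central 95% of the means of all 26224 tested probes (−0.41 to 0.37). Both Rbpj probes and Heyl lie below the band and Hey1 above it, and the other 6 probes lie inside it.

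Set against all tested probes, 6 of the 10 member probes had the same sign on both arrays, 3 of them lower (both Rbpj probes and Heyl) and 3 higher (Hey1, Hes5 and Hes7). The 4 with opposite signs were Hes1, Hes6, Hey2 and Nrarp. Over all tested probes opposite signs were the more common case, at 58.6%, and 41.4% had the same sign. The SD of the log2 ratio over tested probes was 0.305 on the male array, 0.328 on the female array and 0.203 for their mean. The mean of the red over green log2 ratios, which holds any dye effect, had an SD of 0.243 over tested probes. Any difference between the sexes or arrays enters it too and cannot be told apart from dye. This red over green mean was 0.37 for Hes1, 0.35 for the dim and −0.33 for the bright Rbpj probe, all inside the central 95% of tested probes (−0.47 to 0.47), and close to 0 for Hey1 (−0.0033). It cancels in the mean of the Rbpj-cKO over control ratios and enters the error of that mean.

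**Figure D3:**
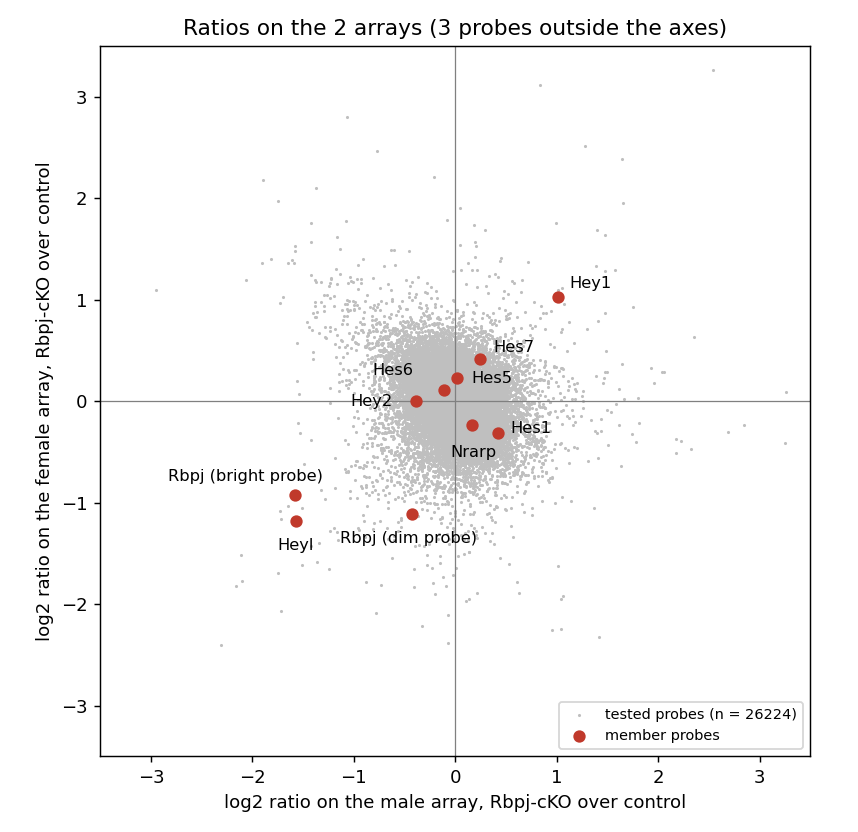
Log2 ratio of Rbpj-cKO over control on the male array (horizontal) against the female array (vertical) for the 26224 tested probes (grey) and the 10 member probes (red). Heyl and both Rbpj probes lie in the lower left and Hey1 in the upper right, while Hes1 and Nrarp lie in the lower right with opposite signs.

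The probes whose pair of ratios lay nearest to those of the 3 members farthest from 0 (Rbpj, Heyl and Hey1) were sought among all tested probes of other genes with a symbol. Nearest to the bright Rbpj probe were probes of Olfr558, an olfactory receptor (−1.65 male, −1.03 female, distance 0.127 in log2 units over the 2 arrays), Rhoa, a small GTPase of the actin cytoskeleton (−1.51 and −1.05, distance 0.143), and Myl4, an atrial and embryonic myosin light chain (−1.72 and −1.09, distance 0.213). Nearest to Heyl were Rergl, a Ras-like protein (−1.71 and −1.16, distance 0.142), and again Rhoa (distance 0.146) and Olfr558 (distance 0.171). Another tested probe of Rhoa had a mean log2 ratio of only −0.19, so the probes of that gene disagree. Nearest to Hey1 were Cntn4, a neuronal adhesion molecule (1.01 male, 1.09 female, distance 0.0700), Gm9132 (1.07 and 0.96, distance 0.0847), and Cadps, a factor of dense-core vesicle release (1.05 and 1.11, distance 0.0963). The other 2 tested probes of Cntn4 had means of 0.44 and 0.87. Likeness over 2 arrays is a weak measure and is given as a description.

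**Figure D4:**
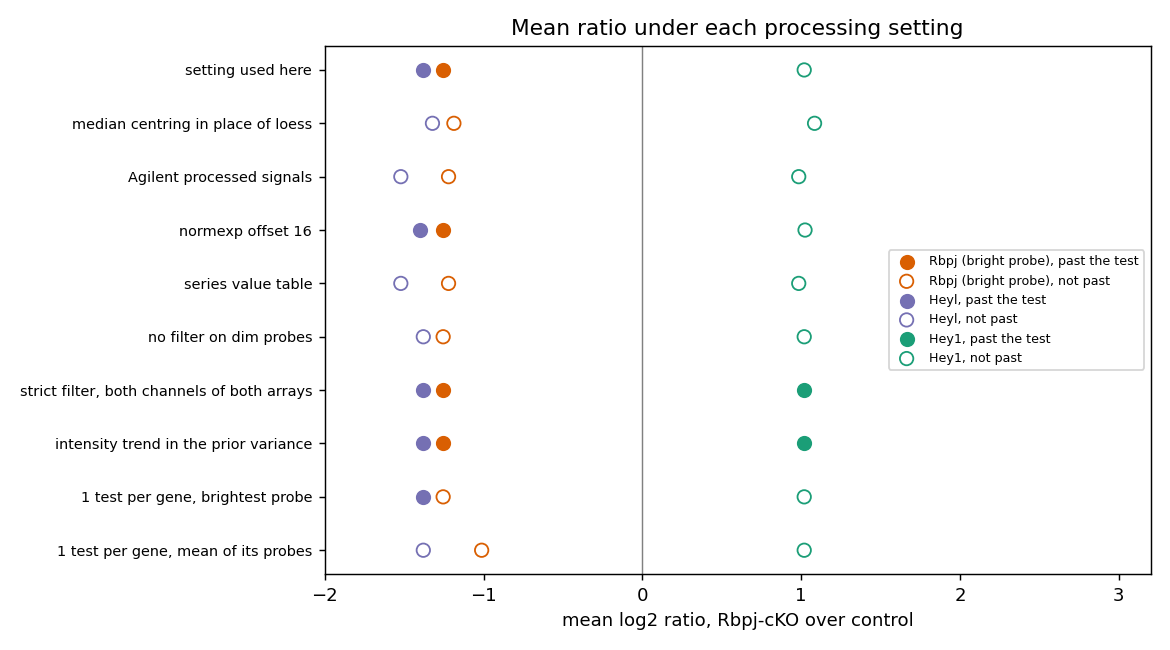
Mean log2 ratio of Rbpj-cKO over control (horizontal) of the bright Rbpj probe, Heyl and Hey1 under each way of processing the arrays (rows), with filled symbols where the adjusted p was under 0.05. In the row for the mean of a gene's probes, the Rbpj symbol is the mean of the bright and dim probes. The ratios of Heyl and Rbpj stayed below −1 and that of Hey1 stayed near 1 under every setting drawn, all with both arrays, while their calls differed between settings. Settings that change only the filter, the variance or the choice of the brightest probe repeat the same ratios.

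The calls changed with the processing, but several alternatives could not move the ratios. No filter, the strict filter, the variance trend and the brightest probe per gene changed only the test. The value table gave these probes the same ratios as the processed signals. Over the 9 alternatives the mean log2 ratio of the bright Rbpj probe or its gene lay between −1.26 and −1.01 and that of Hey1 between 0.98 and 1.08. Rbpj, Heyl and Hey1 kept the same sign on both arrays under median centring, processed signals and the other offset, where the ratios were computed anew. The dim Rbpj probe lay between −0.97 and −0.74 in the 7 alternatives that tested it on its own, and passed in none, with an adjusted p of 0.147 to 1.00.

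Of 75 further Notch pathway genes, listed with earlier results of these data known, 74 were on the array and 69 were tested, each through its brightest probe, and none passed the limma test in either direction. At an unadjusted p under 0.05 there was 1 of the 69 (1.45%, Sox9), against 735 of all 20989 tested genes (3.50%). With p-values adjusted over all 26224 probes in the same way, 13 of the 20989 genes passed as higher and 25 as lower through their brightest probe. The median log2 ratio of the 69 genes was 0.06 (0.07 male, 0.02 female), against 0.0058 over all tested genes, and 22 (of 69) were higher and 12 lower on both arrays, against 4554 (21.7%) and 4132 (19.7%) of all 20989 tested genes. The 69 ratios ran from −0.47 (Sox9) to 0.36 (Tle1), so that every one was closer to 0 than those of Heyl, Hey1 and both Rbpj probes.

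Among the 4 receptors the median was −0.01, with the lowest value at Notch2 (−0.28) and the highest at Notch4 (0.31), the receptor of endothelial cells. The 7 ligands had a median of 0.01, between −0.28 for Dll1 and 0.35 for Jag2. The 6 sugar transferases that modify receptors and tune their response to ligands had a median of 0.11, between −0.12 for Mfng and 0.28 for Eogt. Of the cleavage machinery, 7 of 9 listed genes were tested, with a median of 0.17. Their highest value was 0.22 for Psen2, a catalytic subunit of γ-secretase, and their lowest −0.12 for Adam17, a receptor sheddase whose arrays disagreed (−1.29 male, 1.05 female).

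The 7 coactivators of the RBPJ complex had a median of 0.07, between −0.10 for Snw1 and 0.33 for Maml2, a Mastermind-like protein. The 14 corepressors had a median of 0.10, between −0.20 for Tle4 and 0.36 for Tle1, both Groucho-family proteins that Hes and Hey repressors recruit. The 11 endocytosis and ubiquitin regulators ran from −0.16 for Neurl1a to 0.21 for Dtx1, with a median of 0.06. Of 6 relatives of the members 2 passed the filter, Hes2 at 0.02 and Bhlhe40 at 0.03, and Hes3, Helt, Bhlhe41 and Rbpjl did not. The 11 other reported Notch targets had a median of −0.02, between −0.47 for Sox9, a transcription factor of progenitors and cartilage, and 0.16 for Snai1, with Nrip2 at −0.31 and the cyclin gene Ccnd1 at −0.29.

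**Figure D5:**
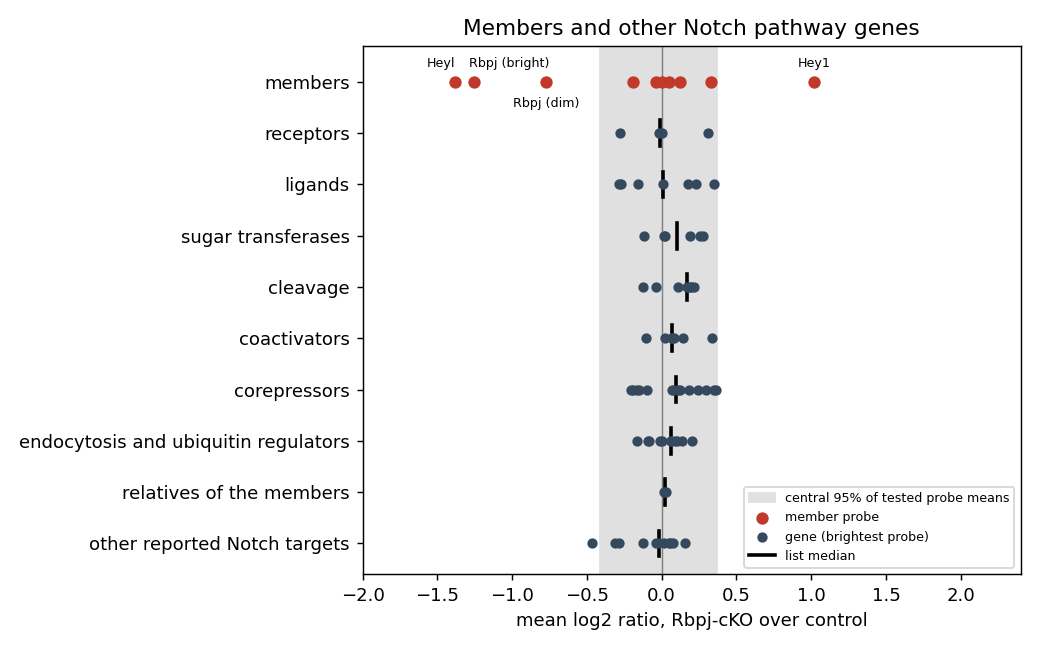
Mean log2 ratio of Rbpj-cKO over control for the 10 member probes (red) and for the brightest tested probe of 69 other Notch pathway genes (dark), by role, with the list median as a black bar; the band holds the central 95% of means of all tested probes. Sox9 (−0.47) is the only listed gene outside the band, while Heyl, both Rbpj probes and Hey1 lie outside it.

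Markers of cell types in and around the ureter were read on the same arrays, since Hey and Hes genes are used by several of them. Intensities are comparable within a probe only, so a sum over markers mostly follows its brightest probes. The sums below are therefore no measure of the share of a cell type. All 5 smooth muscle markers (Acta2, Myh11, Tagln, Cnn1 and Myocd) were lower on both arrays, as 19.7% of all tested genes were and as Heyl was, with a median log2 ratio of −0.29 and none past the test, and their summed intensity was 518070 (male) and 514640 (female) in Rbpj-cKO, against 630430 (male) and 567760 (female) in control. The 5 mural cell markers (Rgs5, Cspg4, Pdgfrb, Notch3 and Kcnj8) had opposite medians on the arrays, 0.37 on the male and −0.32 on the female. Their summed intensity was 39029 (male) and 28520 (female) in Rbpj-cKO, against 30824 (male) and 38206 (female) in control. Pdgfrb and Notch3 are also in the pathway lists above, so these markers are not separate from the pathway genes. Among the mural markers Kcnj8, a vascular potassium channel subunit, was the only one lower on both arrays, with a mean of −0.68. Of the 7 urothelial markers 6 were higher on both arrays, as 21.7% of all tested genes were, with a median of 0.22 and none past the test, and their summed intensity was 786310 (male) and 836650 (female) in Rbpj-cKO, against 648200 (male) and 698390 (female) in control. Of the 5 endothelial markers 1 was higher and 1 lower on both arrays, with a median of −0.05 and sums of 36549 (male) and 35156 (female) in Rbpj-cKO, against 36421 (male) and 38849 (female) in control. Of the 4 skeletal muscle markers, Myod1 and Myog did not pass the filter, Acta1 had a mean of −0.33 and Ckm, muscle creatine kinase, fell (−1.42, adjusted p 0.00456), and the summed intensity of Ckm and Acta1 was 11248 (male) and 12039 (female) in Rbpj-cKO, against 18593 (male) and 16411 (female) in control. Among the 3 nephron progenitor markers Six2 rose (1.17, adjusted p 0.0387), while Cited1 had a mean of −0.59, below 0 on both arrays, and Osr1 had opposite signs (0.49 male, −0.09 female). Their summed intensity was 18117 (male) and 18429 (female) in Rbpj-cKO, against 17934 (male) and 21521 (female) in control. The calls for Ckm and Six2 were lost under median centring, processed signals, the value table and no filter, where no probe passed the test. Of the 5 markers of the ureteric mesenchyme none passed the test. Bmp4, a growth factor of that mesenchyme, (0.78 male, 0.35 female) and Dcn (0.51 and 0.18) were higher on both arrays, and Tshz3, a zinc finger factor of ureteric smooth muscle formation, was lower on both (−0.26 and −0.38). Pdgfra (−0.30 and 0.06) and Tbx18, which has a cre allele in the Rbpj-cKO embryos (−0.11 and 0.47), had opposite signs. The summed intensity of the 5 was 348820 (male) and 311220 (female) in Rbpj-cKO, against 264090 (male) and 277920 (female) in control. Dcn alone made up most of that sum in every channel. Markers of nerve and glia, red cells, mesothelium and immune cells were also read, and none passed the test. The nerve and glia sum was 9459 (male) and 11073 (female) in Rbpj-cKO, against 7807.5 and 20454 in control. In the same order the red cell sum, most of it Hba-a1, was 178990 and 246520, against 245780 and 146490. That of mesothelium was 48754 and 42587, against 37391 and 40470, and that of immune cells 7975 and 7741, against 7610 and 7911. The part of all these differences in the results for Rbpj, Heyl and Hey1 was not tested.

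The promoters of the members were read for the letters that RBPJ and the HES and HEY proteins are known to prefer. RefSeq promoters (GRCm38.p6, 250 bases before to 50 after the start) were at hand for 6 of the 9 members, with 8 promoters in all, and not for Hes1, Hey1 and Heyl, which were not read. On either strand, TGGGAA, the core of the RBPJ motif, was in 25.6% of 32851 promoters of 300 bases, and GTGGGAA, which contains it, in 6.38%. The E box CACGTG was in 7.15% and the motif CACGCG in 9.27%. GTGGGAA was found in Hes5 (2 matches), Hey2 (2) and Hes7 (1), and the windows around the matches are shown, with the motif in capitals, because they hold the longer RBPJ motif.
Hes5, 226 bases before the start, chr4:154960685-154960715: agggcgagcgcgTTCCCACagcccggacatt
Hes5, 83 bases before the start, chr4:154960828-154960858: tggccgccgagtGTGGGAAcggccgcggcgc
Hes7, 180 bases before the start, chr11:69120261-69120291: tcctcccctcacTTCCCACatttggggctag
Hey2, 207 bases before the start, chr10:30842972-30843002: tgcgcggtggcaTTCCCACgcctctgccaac
Hey2, 4 bases before the start, chr10:30842769-30842799: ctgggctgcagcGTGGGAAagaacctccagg
The windows are on GRCm38.p6 and read along the gene's strand, which is the minus strand for Hey2, so TTCCCAC is the same motif on the opposite strand. Hes7 also held CACGCG 14 bases before its start, Nrarp held CACGTG 108 bases before its start, and a Rbpj promoter held TGGGAA 2 times without the preceding G. Hes6 held none of these letters in the window. A match describes the letters in these windows and does not show binding.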

How the data were processed

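Total RNA of dissected ureters was amplified into dye-labelled cRNA and hybridised in pairs, per the labels' protocols. The deposited scanner files list the intensity of each spot, written by Agilent Feature Extraction 10.7.3.1 per the submitters' processing notes. Their mean and background signals are intensity readings without normalization, and the processed signals and the log10 ratio of red over green come after background subtraction and dye normalization, per the file headers. The deposited value table holds a score whose making is not documented. Compared with the scanner files, it is the fold between Rbpj-cKO and control in the processed signals, written with a minus sign where Rbpj-cKO is lower, and its median log2 ratio was 0 on each array.

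Mean signals were background-corrected with normexp (offset 50) and loess was fitted within each array (limma 3.58.1, R 4.3.3). Control spots had weight 0, and outlier spots (200 male, 274 female) were removed. Of 39429 probes 26412 were named through RefSeq and 13017 kept the name in the files. Probes had to be well above background for Rbpj-cKO RNA on both arrays, or for control RNA on both. Each of 26224 such probes was tested with lmFit and eBayes, two-sided, with Benjamini-Hochberg adjustment. The fit has 1 residual degree of freedom, to which eBayes added 14.7. Intensities quoted are after Aquantile scaling between arrays and are comparable within a probe only. The arrays share a slide and a scan, so neither is a batch here.

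Members and gene lists were chosen with earlier results of these data known. All members are named whatever their values, with the 3 probes nearest in ratio to Rbpj, Heyl and Hey1, and of each pathway list the lowest and highest gene. Nrip2, Ccnd1, Adam17's arrays and the marker genes were singled out with their values in view. Alternatives were median centring, processed signals, offset 16, the value table, no filter or a strict filter, a variance trend, 1 test per gene by the brightest probe or by the mean of its probes, and each array alone.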

Additional observations from a re-analysis of the deposited data

Results flagged for a closer look

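For 4 genes the ratios had opposite signs on the arrays. The male minus female difference in the log2 ratio of Rbpj-cKO over control was 0.74 for Hes1, 0.40 for Nrarp, −0.22 for Hes6 and −0.39 for Hey2. Probes with the same sign on both arrays differed too, by −0.66 at the bright and 0.69 at the dim Rbpj probe. The difference was −0.39 at Heyl, −0.21 at Hes5, −0.17 at Hes7 and −0.0066 at Hey1. None of these differences was tested, since each rests on 1 array per sex, and sex, dye orientation and array cannot be told apart. Opposite signs were also found at 58.6% of all tested probes, and 261 probes (0.995%) were at least 1.5-fold changed in opposite directions.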

How the results depend on the processing

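With 2 arrays, calls depend on the variance pooled over probes, and the red channel's lower signal over background limits dim probes. The call for the bright Rbpj probe (−1.25) was lost under median centring (−1.19, adjusted p 1.00), processed signals (−1.22, 0.618), the value table (−1.22, 0.646), no filter (−1.25, 0.363) and 1 test per gene by the brightest probe (−1.25, 0.0760). With 1 test per gene by the mean, the bright and dim Rbpj probes together did not pass (−1.01, 0.244). The Heyl call (−1.38) was lost under median centring (−1.32, 1.00), processed signals (−1.52, 0.341), the value table (−1.52, 0.362), no filter (−1.38, 0.150) and the mean per gene (−1.38, 0.0798). Hey1 (1.02) passed with the strict filter (1.02, 0.0411) and with a variance trend (1.02, 0.0122). Nrarp (−0.03) turned to 0.037 under median centring and to 0.034 under processed signals and the value table. The 42 probes past the test became 0 under median centring (268 at an unadjusted p under 0.05), processed signals (1019), the value table (992) and no filter (1189), 74 with the trend, 27 by the brightest probe, 10 by the mean per gene, 50 with offset 16 and 48 with the strict filter. The 149 probes at least 1.5-fold changed on both arrays (45 higher, 104 lower) became 351 under processed signals (146 higher, 205 lower) and 317 under the value table (124 higher, 193 lower). Median centring left tested probes at medians of 0.16 (male) and −0.09 (female). The causes were not tested. With 1 array left out the ratios were −1.58 to −0.93 for bright Rbpj, −1.57 to −1.19 for Heyl and 1.02 for Hey1, with no test possible, and Hes1, Hes6, Hey2 and Nrarp changed sign with the array left out. Each ratio is already the difference within an array, so the fit is paired by array and no further block was added.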
